A study of Mus musculus with 12 samples.

Results

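Retinoid metabolism was followed through 9 genes of the pathway that makes, carries, senses and destroys retinoic acid. They were the retinaldehyde dehydrogenases Aldh1a1, Aldh1a2 and Aldh1a3, the interconverting enzymes Rdh10 and Dhrs3, the binding proteins Crabp1 and Crabp2, the receptor Rarb and the degrading enzyme Cyp26b1. The genes were chosen by name and role, with earlier results of these data known, and all 9 were among the 16411 genes listed in the deposited table. The RNA came from 6 tumors and 6 benign samples of the mammary glands of untreated female MMTV-Neu-NDL-YD5 transgenic mice, heterozygous on an FVB background and followed for tumors from 10 weeks of age. The age of each sample was not given in the sources used here. In this line the mouse mammary tumor virus promoter drives an activated form of neu, the rodent HER2, in mammary epithelium, and the benign tissue carried the transgene too. Benign tissue was mammary tissue with no visible tumor, taken as far from a tumor as possible, and the tumors and benign samples that were sequenced came from different mice.

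Retinoic acid is made from retinol, vitamin A, in successive steps. RDH10 oxidises retinol to retinaldehyde and DHRS3 reduces it back, and the ALDH1A enzymes then oxidise retinaldehyde irreversibly to retinoic acid. Inside the cell retinoic acid is held by CRABP1 and CRABP2, of which CRABP2 hands it to the retinoic acid receptors in the nucleus, and CYP26 enzymes hydroxylate it for removal. The receptors bind DNA with retinoid X receptors, and Rarb is itself a classical retinoic acid target. In the mammary gland ALDH1A1 and ALDH1A3 are best known as sources of the aldehyde dehydrogenase activity by which progenitor-like epithelial cells are sorted, while adipose tissue and stroma store and metabolise retinol as well.

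The receptor gene showed its textbook response element in the sequence just before its start. Retinoic acid receptors bind direct repeats of a 6-base half-site, and a repeat with a spacer of 5 bases is called DR5. Half-sites were searched as AGGTCA, with G also allowed as the first base and T as the third, on both strands, in 300-base RefSeq promoters (250 bases before each start and 50 after it, build GRCm38.p6), for spacers of 1, 2 and 5 bases. Of the 9 genes 6 had an entry (Aldh1a1, Aldh1a2, Dhrs3, Crabp1, Rarb and Cyp26b1), and Rarb alone among them held a match, a DR5 from 53 to 37 bases before the start. Over all 32851 promoters DR5 occurred in 0.097%, DR2 in 0.268% and DR1 in 0.222%. Cyp26a1, which degrades retinoic acid as Cyp26b1 does, held a DR5 on the opposite strand, from 32 to 16 bases before its start. The 140 bases before each start are shown with the DR5 in capitals, because these were the only DR5 matches among the 9 genes and the further pathway genes described below. The Rarb window is chr14:16575477-16575616 on the minus strand, inside the gene's span, and the Cyp26a1 window is chr19:37697668-37697807 on the plus strand. A match describes the letters only, and its occupancy was not measured.
Rarb: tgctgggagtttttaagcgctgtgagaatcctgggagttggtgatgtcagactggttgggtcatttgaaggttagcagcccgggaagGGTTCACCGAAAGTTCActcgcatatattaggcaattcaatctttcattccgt
Cyp26a1: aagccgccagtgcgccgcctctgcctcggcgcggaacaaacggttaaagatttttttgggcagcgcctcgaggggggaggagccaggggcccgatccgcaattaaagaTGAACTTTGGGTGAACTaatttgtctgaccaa

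The retinoid genes moved in both directions, and each of those that could be tested was called different between tumors and benign tissue, although the calls of Rdh10 and Cyp26b1 depended on the samples or the fit. Crabp2 and Rdh10 were higher in tumors, and Aldh1a1, Aldh1a3, Dhrs3, Rarb and Cyp26b1 were lower. Tumors and benign samples were compared by edgeR (quasi-likelihood, two-sided) over the 13191 genes that passed its expression filter, 7 of the 9 among them, and a gene was called at a Benjamini-Hochberg adjusted p under 0.1. In the same test 63.0% of all genes were called, 28.2% higher and 34.8% lower in tumors, so that calls of 7 of 7 genes (2 higher, 5 lower) stood against a high background. The median log2 fold change was -1.66 over the 7 genes and -0.06 over all genes tested. The remaining genes, Aldh1a2 and Crabp1, had too few counts for the filter. Over all genes tested, every tumor lay above every benign sample for 14.7% of genes and below for 21.2%. Among the 9 retinoid genes Crabp2 lay above in this way, and Aldh1a1, Aldh1a2, Crabp1 and Rarb lay below. Of the 7 that were tested, as in those shares, 1 lay above and 2 below, since Aldh1a2 and Crabp1 failed the filter. Levels are CPM, counts relative to library size, scaled by edgeR's TMM method, errors are SD with n = 6 per group, and single genes were also compared by a two-sided exact permutation test over all ways to split the samples into 6 and 6, whose smallest p is 0.00216.

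**Figure D1:**
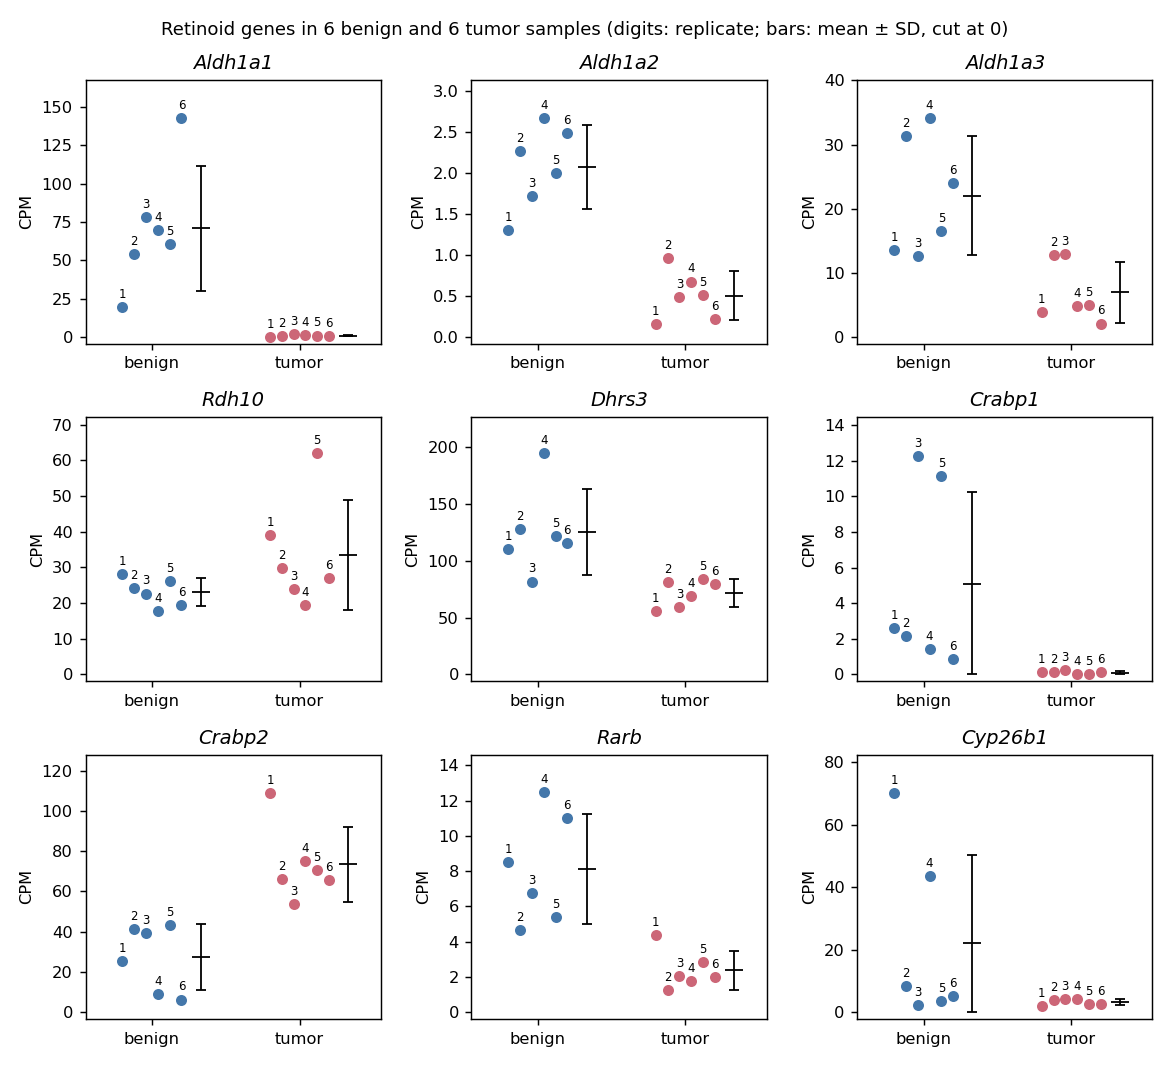
CPM of the 9 retinoid genes (vertical axes, linear, one scale per gene) in 6 benign (blue) and 6 tumor (red) samples, with the replicate number beside each point and the mean ± SD beside each group. The tumors lie below all benign samples for Aldh1a1, Aldh1a2, Crabp1 and Rarb, above them for Crabp2, and overlap them for the other genes.

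What the libraries held besides epithelium differed between the groups and among the benign samples. Erbb2 averaged 56.8 ± 11.2 CPM in the benign group and 7411 ± 5090 CPM in tumors, with every tumor above every benign sample. The summed level of 8 white adipocyte markers was 12120 to 23950 CPM in benign samples and 26.8 to 140 CPM in tumors, and all 8 were lower in tumors. The 8 fibroblast markers (4274 to 10740 against 388 to 914 CPM), the 7 basal and myoepithelial markers (700 to 1556 against 31.9 to 111 CPM) and the 6 endothelial markers (581 to 1074 against 80.9 to 97.5 CPM) were each lower in tumors without exception. Of 8 luminal markers 4 were higher and 2 lower, and their sum was 1096 to 2377 CPM in benign samples and 2431 to 4091 CPM in tumors. No marker of these lists was at 0 in any of the 12 samples. Benign samples 3, 4 and 6 held skeletal muscle transcripts (25610 to 65300 CPM over 7 markers, against 290 CPM or less in the other benign samples). Benign samples 4 and 6 held the most brown adipocyte transcripts (2967 and 813 CPM), and benign sample 1 held lymphocyte transcripts (749 CPM over 6 markers, against 13.5 CPM or less elsewhere). The part of these tissues in the differences was not tested, and in bulk tissue fewer cells of a type and less RNA per cell cannot be told apart.

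Rdh10 (chr1:16105774-16133734, plus strand, GRCm38), the oxidising enzyme that starts the pathway, rose slightly in tumors. It lay between 17.8 and 28.2 CPM in benign tissue with a median of 23.5 CPM, and between 19.4 and 62.1 CPM in tumors with a median of 28.4 CPM. Tumor sample 5 was the highest, 3 of 6 tumors exceeded every benign sample, and the groups overlapped. The log2 fold change was 0.54 with a standard error of 0.25 (adjusted p = 0.087 by edgeR), the 95% interval ran from -0.02 to 1.10, and the exact permutation test gave p = 0.106. The edgeR call was lost without benign sample 3 (adjusted p = 0.125), benign sample 4 (0.158), benign sample 6 (0.146) or tumor sample 5 (0.150, log2 fold change 0.33), and without the 3 muscle-rich benign samples the log2 fold change was 0.40 (adjusted p = 0.344 by edgeR).

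Dhrs3 (chr4:144892827-144928209, plus strand), which encodes the reductase that turns retinaldehyde back into retinol, fell in tumors. It lay between 81.8 and 195 CPM in benign tissue (median 119 CPM) and between 55.4 and 84.1 CPM in tumors (median 74.5 CPM). The brown adipocyte-rich benign sample 4 was the highest, and 5 of 6 tumors lay below the lowest benign sample. Dhrs3 fell by 0.81 on the log2 scale (standard error 0.19, adjusted p = 0.0025 by edgeR), and the exact permutation test gave p = 0.0043. The fall was 0.64 on this scale without benign sample 4 and kept its call in each of the 12 fits that left out 1 sample.

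Aldh1a1, a retinaldehyde dehydrogenase, showed the largest log2 fold change of the 7 tested genes. Its depth-corrected ratio of benign to tumor counts was 80.9. That value lay inside the 95% counting interval of the untested Crabp1, 21.9 to 161, so that these genes cannot be ranked at this depth. Benign samples held 19.3 to 143 CPM with a median of 65.3 CPM, and tumors 0.156 to 1.56 CPM with a median of 0.832 CPM. All 6 tumors together gave 40 counts, against 2834 in benign tissue. The gene passed the expression filter through its benign samples, so that a higher call was not open to it. The mean of 70.9 ± 40.7 CPM was 84.8-fold that of tumors, 0.836 ± 0.478 CPM, and the groups were far apart although benign samples 1 and 6 themselves differed severalfold. Aldh1a1 fell by 6.35 on the log2 scale (standard error 0.52, adjusted p = 4.2e-07 by edgeR, exact permutation p = 0.00216), and leaving out single samples moved the fold change between -6.55 and -6.02. Without the muscle-rich benign samples 3, 4 and 6 it was -5.66 (adjusted p = 1.0e-05 by edgeR). The gene spans chr19:20492715-20643465 on the plus strand of GRCm38.

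Reads of Aldh1a1 could be shared with Aldh1a7, its neighbour at chr19:20692953-20727562 on the minus strand, which encodes a closely related enzyme. The coding sequences of the pair were 91.6% identical, and 281 stretches of 31 bases occurred in transcripts of both, 5.7% of those of Aldh1a1 and 13.8% of those of Aldh1a7. Aldh1a7 lay between 76.8 and 141 CPM in benign tissue and between 0.275 and 0.767 CPM in tumors (edgeR log2 fold change -7.76, adjusted p = 6.8e-10). With 23 counts over all tumors, Aldh1a7 too passed the filter through benign samples alone. Both paralogs were thus near 0 in every tumor, but how Salmon divided their shared reads was not examined, and the split between them is uncertain. The other pairs of ALDH1A genes were 66.9% to 68.7% identical and shared 0 such stretches.

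Aldh1a3 (chr7:66390890-66427517, minus strand), the ALDH1A gene most often tied to human mammary progenitor cells, was lower in tumors but not lost. Benign samples lay between 12.7 and 34.2 CPM (median 20.2 CPM) and tumors between 2.09 and 13.0 CPM (median 4.92 CPM). Tumor samples 2 and 3, at 12.8 and 13.0 CPM, reached the lower edge of benign tissue, where samples 1 and 3 held 13.5 and 12.7 CPM, while the other 4 tumors lay below all benign samples. The log2 fold change was -1.66 with a standard error of 0.44 (adjusted p = 0.0061 by edgeR, exact permutation p = 0.0065).

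Aldh1a2 (chr9:71215789-71296243, plus strand), the family member that leads retinoic acid synthesis in the embryo and in mesenchyme, was scarce in both groups. Its level was 1.30 to 2.67 CPM in benign tissue (median 2.13 CPM) and 0.156 to 0.963 CPM in tumors (median 0.496 CPM), with no overlap (exact permutation test, p = 0.00216). The counts were 84 and 23, a depth-corrected ratio of 4.17 in favour of benign tissue with a 95% interval of 2.60 to 6.93 that covers counting error only. With all genes tested that had at least 1 count, its log2 fold change was -1.94 (adjusted p = 0.0019 by edgeR).

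Which ALDH1A gene led therefore differed between the groups. Per kilobase of the longest transcript, Aldh1a1 made up 64.5% to 88.3% of the summed level of the 3 genes in benign tissue and 5.2% to 31.7% in tumors. Aldh1a3 made up 9.8% to 31% in benign tissue and 58.9% to 89.3% in tumors, and led in all 6. The tumor shares are imprecise, as each tumor held 1 to 13 counts of Aldh1a1, 1 to 7 of Aldh1a2 and 19 to 108 of Aldh1a3. All shares depend on the transcript length used. The sum itself was 12.7 to 68.6 CPM per kilobase in benign tissue and 1.03 to 4.65 CPM per kilobase in tumors, so that the larger share of Aldh1a3 came with a lower level of Aldh1a3. Aldh1a7 was not part of this sum.

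**Figure D2:**
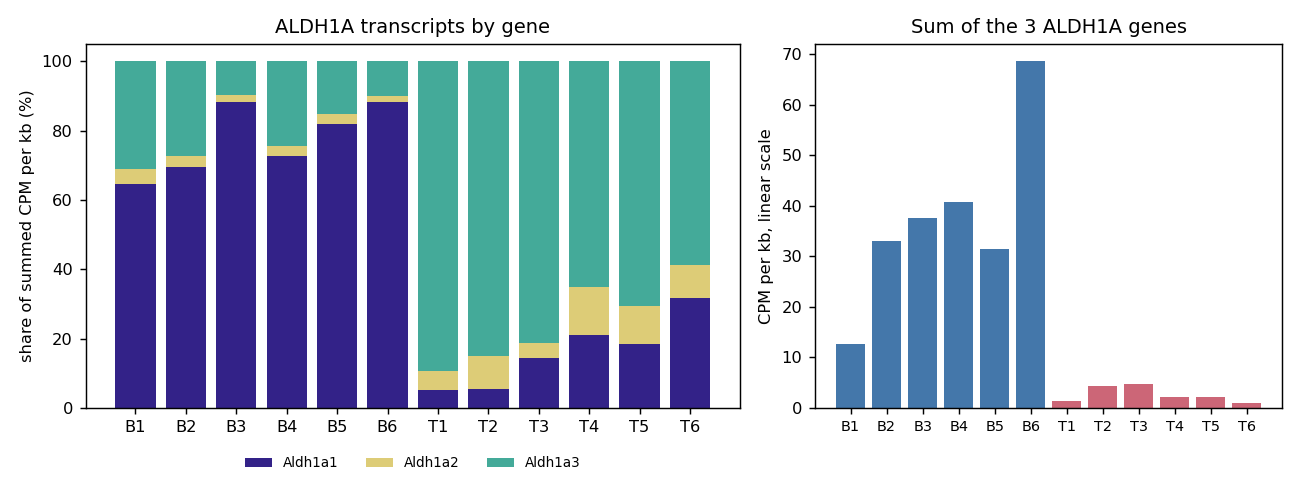
Left, share of each ALDH1A gene in the summed CPM per kilobase of the 3 genes (vertical axis, %) in benign (B1 to B6) and tumor (T1 to T6) samples. Right, that sum in CPM per kilobase on a linear axis: Aldh1a1 leads in every benign sample and Aldh1a3 in every tumor, where the sum is at most 4.65.

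The binding proteins of retinoic acid went opposite ways. Crabp2 (chr3:87948666-87953376, plus strand), whose protein delivers retinoic acid to its receptors, lay between 6.21 and 43.1 CPM in benign tissue (median 32.3 CPM) and between 53.8 and 109 CPM in tumors (median 68.5 CPM). All 6 tumors lay above all benign samples, and tumor sample 1 was the highest. The log2 fold change was 1.41 with a standard error of 0.42 (adjusted p = 0.011 by edgeR, exact permutation p = 0.00216). The lowest benign values were those of samples 4 and 6, 8.91 and 6.21 CPM, against 25.4 CPM or more in the other 4. Those 2 samples also held the lowest benign sums of basal markers (805 and 700 CPM) and of keratinocyte markers (29.9 and 29.8 CPM). Their sums of white adipocyte markers were the highest (23950 and 20980 CPM), and the part of these tissues was not tested. Without benign sample 6 the log2 fold change was 1.21 and without benign sample 2 it was 1.62, the extremes over the 12 fits, all with the call. Without benign samples 3, 4 and 6 together it was 1.03 (adjusted p = 0.0076 by edgeR), and without benign samples 1, 2 and 5 it was 2.09.

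Crabp1 (chr9:54764748-54773110, plus strand), whose protein holds retinoic acid in the cytosol, was nearly absent from tumors. Benign tissue held 0.888 to 12.3 CPM with a median of 2.37 CPM, and samples 3 and 5 (12.3 and 11.1 CPM) stood apart from the other 4, at 2.59 CPM or less. Tumors held 0 to 0.241 CPM, with 2 of 6 at 0 counts and none above 3 counts, the floor used here. In all there were 5 counts in tumors and 227 in benign tissue, a depth-corrected ratio of 51.8 with a counting interval of 21.9 to 161 (exact permutation test on log2 CPM, p = 0.00216). With all genes of at least 1 count tested, the log2 fold change was -5.27 (adjusted p = 2.5e-04 by edgeR). Crabp1 and Crabp2 were 70.3% identical in coding sequence and shared 0 stretches of 31 bases, so that their opposite differences did not rest on shared reads of that length.

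Rarb (chr14:16430839-16819156, minus strand), the retinoic acid receptor whose DR5 is printed above, was lower in every tumor. It lay between 4.66 and 12.5 CPM in benign tissue (median 7.63 CPM) and between 1.24 and 4.36 CPM in tumors (median 2.01 CPM). The highest tumor, sample 1, came close to the lowest benign sample, sample 2, without overlap. Rarb fell by 1.77 on the log2 scale (standard error 0.34, adjusted p = 7.0e-04 by edgeR, exact permutation p = 0.00216), with a range of -1.97 to -1.58 when single samples were left out. Among benign samples Rarb was highest in samples 4 and 6 (12.5 and 11.0 CPM), the samples in which Crabp2 was lowest.

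Cyp26b1 (chr6:84571414-84593908, minus strand), the cytochrome P450 that clears retinoic acid, was called lower, but its difference rested on few benign samples. Benign samples 1 and 4 held 70.0 and 43.5 CPM and the other 4 held 2.24 to 8.48 CPM, so that the benign median was 6.81 CPM against a mean of 22.2 ± 28.2 CPM. Tumors held 1.87 to 4.18 CPM with a median of 3.26 CPM, and a single tumor lay below the lowest benign sample. The log2 fold change was -2.78 with a standard error of 0.80 (adjusted p = 0.0094 by edgeR), and the exact permutation test gave p = 0.0519. Without benign sample 1 it was -1.92 (adjusted p = 0.031 by edgeR). Benign sample 1 was the lymphocyte-rich library and benign sample 4 the library richest in brown adipocyte transcripts, and the part of either in this level was not tested.

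Compared per kilobase of the longest transcript, the order of the 9 genes changed between the groups. In benign tissue the means were 53.7 CPM per kilobase for Dhrs3, 30.0 for Aldh1a1, 29.4 for Crabp2, 6.43 for Rdh10, 6.40 for Aldh1a3, 6.33 for Crabp1, 4.93 for Cyp26b1, 2.61 for Rarb and 0.915 for Aldh1a2. Neighbours in that order overlapped over the samples, except Rarb (1.50 to 4.01) and Aldh1a2 (0.573 to 1.18). In tumors the means were 78.8 CPM per kilobase for Crabp2, 30.6 for Dhrs3, 9.36 for Rdh10, 2.01 for Aldh1a3, 0.761 for Rarb, 0.708 for Cyp26b1, 0.354 for Aldh1a1, 0.221 for Aldh1a2 and 0.134 for Crabp1. There the first 4 were separate from one another in every sample, at 57.8 to 117 for Crabp2, 23.7 to 36.0 for Dhrs3, 5.42 to 17.3 for Rdh10 and 0.606 to 3.78 for Aldh1a3. The lower ranks overlapped their neighbours. Aldh1a1 thus went from the second to the seventh place, and Crabp2 from the third to the first.

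**Figure D3:**
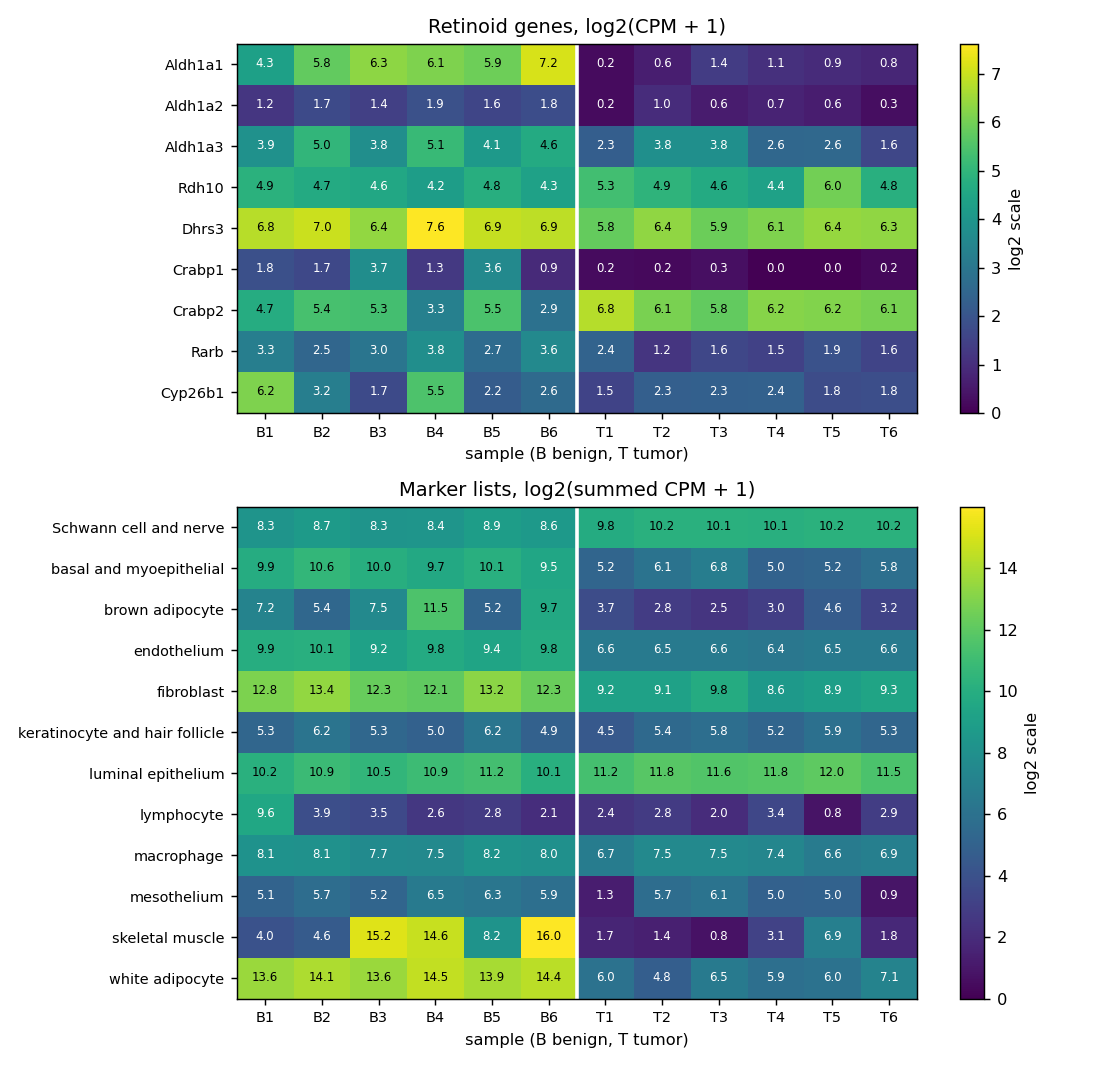
Heat maps of log2(CPM + 1) of the 9 retinoid genes (top) and of log2(summed CPM + 1) of 12 cell type marker lists (bottom) in benign samples B1 to B6 and tumors T1 to T6, with the value in each cell. Benign samples 4 and 6 combine low Crabp2 with high Rarb, and adipocyte, fibroblast, basal and endothelial sums are lower in every tumor.

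Beyond the 9 genes, 68 further genes of the pathway were listed by role, of which 58 were in the table and 46 were tested. Of these 27 were lower in tumors, 7 were higher and 12 were not called, with a median log2 fold change of -0.999. Every tumor lay below every benign sample for 18 of the 46 genes and above for 3, against 21.2% and 14.7% of all genes tested. The shares called, 27 of 46 lower and 7 of 46 higher, stood against 34.8% and 28.2% of all genes, and no test set the list apart. Some of the lower genes, as named below, passed the filter through benign samples alone.

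Genes for retinol binding and uptake had 3 of 4 tested members lower and none higher, against 34.8% and 28.2% of all genes tested. Rbp4, the retinol carrier of blood and a product of fat and liver, lay between 214 and 443 CPM in benign tissue and between 0 and 0.602 CPM in tumors. Rbp4 fell by 9.98 on the log2 scale (standard error 0.50, adjusted p = 8.1e-09 by edgeR). Stra6, a receptor for that carrier, and Scarb1, a lipoprotein receptor that also takes up carotenoids, were lower too (log2 fold changes -4.09 and -1.03). Rbp4 and Stra6, with 12 and 30 counts over all tumors, passed the filter through benign samples, so that a higher call was not open to them. The intracellular retinol carrier Rbp7 (log2 fold change 0.65, adjusted p = 0.414 by edgeR) was not called.

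Among 13 tested enzymes that interconvert retinol and retinaldehyde, 3 were higher (Rdh11, Rdh12 and Akr1b10), 6 were lower (Rdh13, Dhrs7, Adh1, Adh7, Akr1b3 and Akr1b8) and 4 were not called. The shares over all genes tested were 28.2% higher and 34.8% lower. Rdh13 was at the edge of the threshold (log2 fold change -0.43, adjusted p = 0.087 by edgeR) and lost its call in 8 of the 12 fits without single samples, under DESeq2 (adjusted p = 0.107) and without benign samples 3, 4 and 6 (-0.06, adjusted p = 0.815 by edgeR). Dhrs7 also lost its call in the last of these fits (adjusted p = 0.115 by edgeR). Rdh12, a retinal reductase best known from photoreceptors, had the largest rise, from 1.96 to 7.49 CPM in benign tissue to 21.7 to 85.0 CPM in 5 tumors. Tumor sample 5 held 0.384 CPM, below every benign sample, and was also the tumor with the most Rdh10. The log2 fold change of Rdh12 was 3.31 with a standard error of 0.76 (adjusted p = 0.0024 by edgeR). Adh7, an alcohol dehydrogenase active on retinol, had the largest fall of this group, from 2.37 to 5.85 CPM in benign tissue to 0 to 0.722 CPM in tumors (edgeR log2 fold change -3.84, adjusted p = 4.9e-05). With 11 counts over all tumors, it passed the filter through benign samples alone.

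Both tested genes listed under retinaldehyde oxidation outside the ALDH1A trio were lower, against 34.8% of all genes tested. They were Aldh1a7 as given above and Aox1, an aldehyde oxidase (log2 fold change -1.63, adjusted p = 0.0099 by edgeR). Whether the Aldh1a7 enzyme acts on retinaldehyde was not examined. Without the muscle-rich benign samples 3, 4 and 6 Aox1 lost its call (adjusted p = 0.109 by edgeR). Fabp5, a fatty acid-binding protein that can carry retinoic acid to another nuclear receptor, lay between 85.9 and 171 CPM in benign tissue and between 20.6 and 42.0 CPM in tumors. For Fabp5 the log2 fold change was -1.89 with a standard error of 0.22 (adjusted p = 9.0e-06 by edgeR), so that Crabp2 and Fabp5 moved apart, the former above and the latter below all benign samples in every tumor. Cyp26a1, whose promoter is printed above, held at most 2 counts in any sample and could not be compared at this depth, and Cyp26c1 was as scarce (means of 0.130 and 0.089 CPM in benign tissue).

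Of 10 tested receptors and cofactors, 3 were higher, 3 were lower and 4 were not called. These counts were near the shares over all genes tested, 28.2% higher and 34.8% lower. Rara (log2 fold change -0.47, adjusted p = 0.144 by edgeR), Rarg (-0.19, adjusted p = 0.448) and Rxrb (0.03, adjusted p = 0.844) were among the latter, with the corepressor Ncor1 (0.17, adjusted p = 0.210). The retinoid X receptors Rxra (-1.19, adjusted p = 8.5e-05 by edgeR) and Rxrg (-2.92, adjusted p = 0.035) were lower, as was Rarb above. Rxrg lay between 7.49 and 38.3 CPM in benign tissue and between 0 and 2.43 CPM in 5 tumors, with 13.2 CPM in tumor sample 5. Its call was lost without benign samples 3, 4 and 6 (log2 fold change -1.76, adjusted p = 0.310 by edgeR), and without tumor sample 5 its log2 fold change was -5.09. The coactivators Ncoa1, Ncoa2 and Ncoa3 were higher, led by Ncoa1, which lay between 50.1 and 63.5 CPM in benign tissue and between 91.9 and 130 CPM in tumors (edgeR log2 fold change 0.89, adjusted p = 1.5e-05). Nrip1, a corepressor, was lower (-0.72).

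Genes known to respond to retinoic acid, most of which also answer to other signals, had 11 of 15 tested members lower and 1 higher. Over all genes tested, 34.8% and 28.2% were called in these directions. Some lower genes passed the filter through benign samples alone, among them Rarres1, Hoxb5 and Foxa1, with 15, 7 and 40 counts over all tumors. Rarres1, named for its induction by the retinoid tazarotene, lay between 13.3 and 40.2 CPM in benign tissue and between 0 and 0.688 CPM in tumors (edgeR log2 fold change -6.53 with a standard error of 0.51, adjusted p = 3.1e-07). Rarres2, which encodes the adipokine chemerin, fell by 5.94 on the same scale. Other lower genes were the transcription factors Foxa1, Hoxa4, Hoxa5, Hoxb5, Meis2, Hic1, Nr2f1 and Nr2f2 and the transglutaminase Tgm2. Hoxa5 lost its call without benign samples 3, 4 and 6 (adjusted p = 0.211 by edgeR). Tshz1, a zinc finger factor, rose from 37.5 to 58.9 CPM in benign tissue to 65.3 to 86.9 CPM in tumors (edgeR log2 fold change 0.65, adjusted p = 7.3e-04). Hoxb4, Meis1 and Egr1 were not called. Expression of such genes is not a measurement of retinoic acid, which was not assayed.

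**Figure D4:**
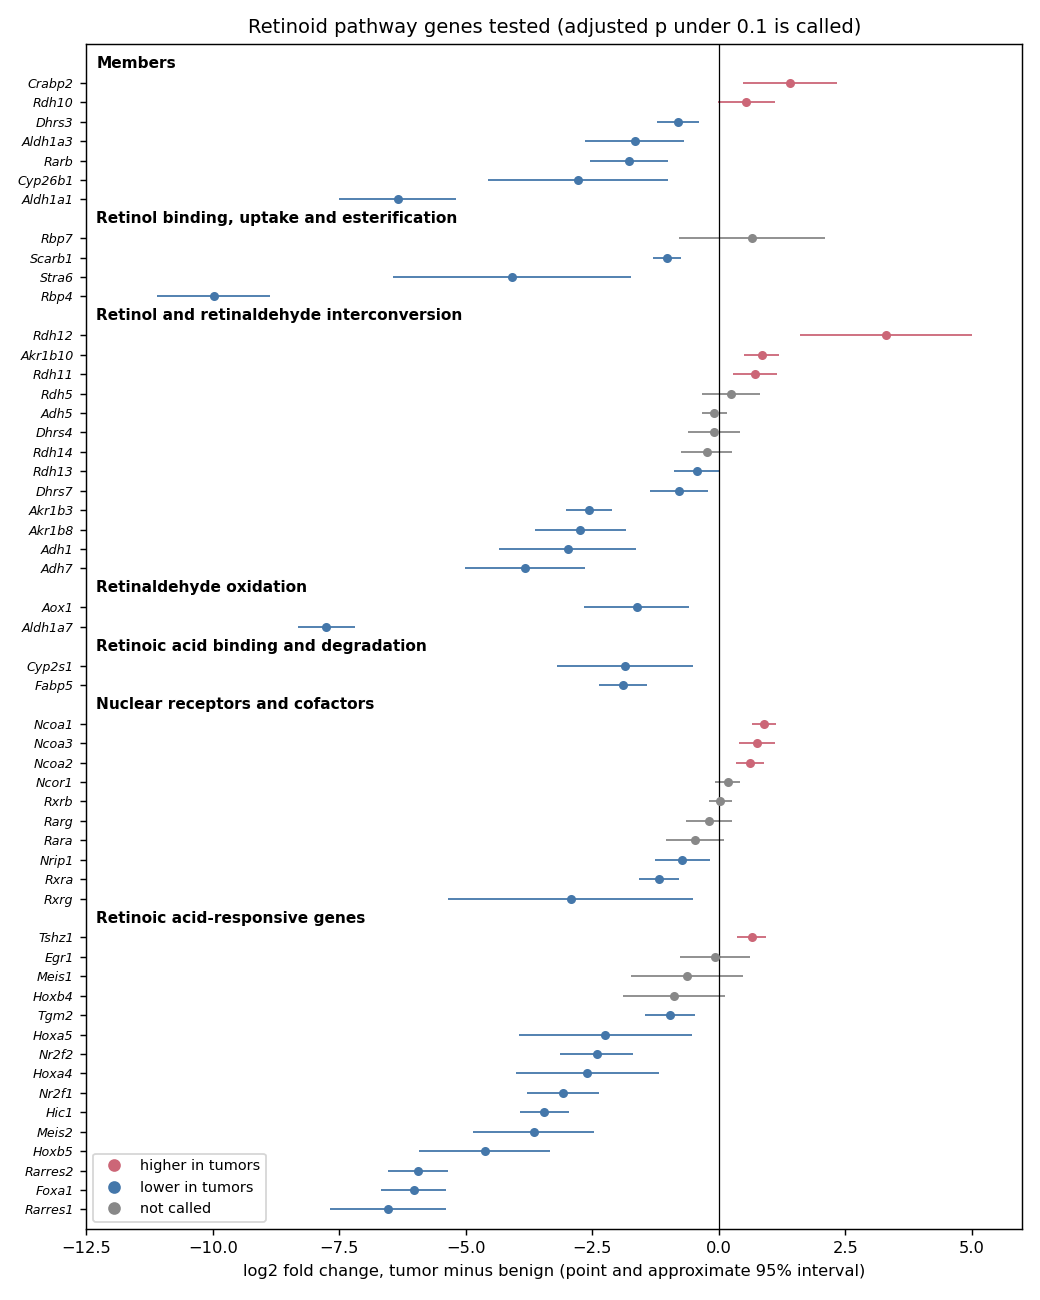
Log2 fold change, tumor minus benign (horizontal axis), with approximate 95% intervals for the 7 tested retinoid genes and the 46 further genes tested, grouped by role. Red marks genes higher in tumors, blue lower and grey not called by edgeR at an adjusted p of 0.1, and the lower calls reach -9.98 (Rbp4).

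Within benign tissue the retinoid genes split the samples in a repeated way. Stra6 (2.14 and 1.95 CPM) was, like Crabp2, lowest in samples 4 and 6, against 8.72 CPM or more in the other 4. Crabp1 was lowest in samples 6 and 4 as well. Rarb, Rxrg (34.9 and 38.3 CPM), Adh1 (110 and 122 CPM) and Aox1 (84.4 and 96.4 CPM) were instead highest in samples 4 and 6. The brown adipocyte sums were highest in the same samples. So were the white adipocyte sums, at 23950 and 20980 CPM against 17030 CPM or less in the other benign samples. Both samples also held muscle transcripts, as did benign sample 3, which had 22.0 CPM of Stra6. The part of these tissues was not tested. These genes were picked after their values were seen, and no test was made of the split.

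The genes whose levels moved most like each retinoid gene from sample to sample were found by Pearson correlation of log2 CPM after subtraction of the group mean, over 12 samples and 12043 candidate genes. Crabp2 was closest to Phlda1 (r = 0.98), Arfgef3 and Tyro3 (both 0.97), and Rarb to Gclc (0.95), Brap (0.94) and Fbxo21 (0.92). Aldh1a1 was closest to Ccdc57, Arpp19 (both 0.87) and Gaa (0.86), and Aldh1a3 to Plod1 (0.93), Peg3 and Tm7sf3 (both 0.91). Rdh10 was closest to Rab27a (0.92), Alg12 and Rflna (both 0.91), and Dhrs3 to Fkbp8 (0.93), Aamp and Txnl4b (both 0.91). Cyp26b1 was closest to Idnk (0.94), Stk19 (0.93) and Jak3 (0.90), but within the tumors alone these were 0.37, 0.61 and 0.29, so that the likeness lay in benign tissue. These genes were picked as the highest of 12043 candidates over 12 samples, so that large values come from the choice alone. In tumors Aldh1a1 rested on 1 to 13 counts per sample. The points share libraries and depth, and the values describe these 12 samples only.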

How the data were processed

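The authors enriched poly A RNA of 12 samples, made directional libraries (NEBNext Ultra II), trimmed paired reads with Trim Galore, ran Salmon and deposited its estimated counts, summed by gene symbol as whole numbers and unscaled. The labels name build mm10. Versions and the annotation were not given in the sources used here. All listed genes sum to at least 5 counts, and 0 columns lacked a sample. Totals ranged from 5240853 to 8588567, and 3 counts, the floor, averaged 0.426 CPM. Samples of a group differed by more than sampling noise (smallest chi-square per degree of freedom 13.1 in benign tissue and 17.2 in tumors). Samples were grouped by their titles.

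Genes were filtered with filterByExpr (minimum count 10, minimum total 15), scaled by TMM and tested by quasi-likelihood in edgeR 4.0.16 (R 4.3.3). Calls used the 0.1 threshold of the study's methods. The fit was also run on simulated counts in which few genes changed, equally in both directions. That run cannot show how the scaling behaves where most genes differ, as here. The common biological coefficient of variation was 0.351. Log2 CPM used 2 added counts. DESeq2 1.42.0 was an alternative, beside upper-quartile and unscaled libraries, 2 other filters, a 0.05 threshold, a block for the replicate number, and fits without single samples or without 3 benign samples. Lengths, positions and coding sequences came from GENCODE M21 (GRCm38), not necessarily the annotation behind the counts. Promoters came from RefSeq.

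The 9 genes, the pathway and marker lists and the alternatives were chosen with earlier results of these data known. Named were the 9 genes, in each role of the pathway list the called genes with the largest rise and fall at 1 CPM or more in the higher group, and for each tested retinoid gene the 3 most correlated genes with a mean of at least 5 CPM. Some genes of the pathway list are not reported here. Pathway genes named beyond this rule were chosen after their values were seen. The replicate numbers did not pair samples, which came from different mice.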

Additional observations from a re-analysis of the deposited data

Results flagged for a closer look

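The 6 samples of each group were searched for 1 sample far from the others in the 9 retinoid genes and the 46 further pathway genes tested, 55 genes and 110 groups in all. In 13 groups the gap of the highest sample to the next exceeded Dixon's 95% critical value as a share of the group's range, and none of the 9 retinoid genes was among them. For normally distributed values chance flags about 1 in 20 groups. The CPM were taken on their linear scale, where this rate need not hold, and genes of the same library are not independent. In 8 of the 13 the sample was tumor 5. It held 3.45 CPM of Stra6 while the other tumors held 0 to 0.22 CPM, 13.2 CPM of Rxrg (others 0 to 2.43 CPM), 31.8 CPM of Adh1 (others 2.80 to 10.1 CPM) and 50 CPM of Aox1 (others 6.04 to 19.3 CPM). The same tumor held 32.1 CPM of Akr1b3 (others 15 to 19.8 CPM), 5.5 CPM of Akr1b8 (others 0.675 to 2.41 CPM), 3.20 CPM of Cyp2s1 (others 0.135 to 0.688 CPM) and 17.6 CPM of Nr2f2 (others 3.99 to 8.06 CPM). Tumor 5 also held the highest tumor sums of skeletal muscle markers (119 CPM) and of brown adipocyte markers (24.0 CPM), and their part in these levels was not tested. Benign sample 1, the lymphocyte-rich library, held 61.9 CPM of Rara (others 25.0 to 34.3 CPM) and 68.9 CPM of Ncoa2 (others 46.2 to 48.4 CPM). Single tumors stood apart for Hoxa5 (9.75 CPM in tumor 3, others 0.138 to 3.73 CPM), Meis2 (4.26 CPM in tumor 2, others 0.256 to 0.934 CPM) and Egr1 (332 CPM in tumor 4, others 98.5 to 148 CPM).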

How the results depend on the processing

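Over the fold changes of the tested retinoid genes, 138 alternative values kept their direction and side of the threshold, 7 lost the call and 0 reversed. Of the retinoid genes, 2 were higher in tumors, but 1 at a threshold of 0.05 or without benign samples 3, 4 and 6, and 1 to 2 when single samples were left out, because Rdh10 lost its call. There were 5 lower genes, but 3 with at least 10 counts required in every sample, where 5 of the 9 were tested, and 5 to 6 when single samples were left out. Pathway genes numbered 7 higher (7 to 8 without single samples) and 27 lower (26 to 28). Under the filter of 10 counts in every sample, which removes genes that fell, 12 were lower and 6 higher. With that filter 3247 of all 11227 genes tested were lower, against 4594 of 13191 in the main fit. Same-numbered samples did not deviate together (correlations -0.124 to 0.103, with 0 of 6 benign samples closest to their own number). With the replicate block Cyp26b1 fell by 1.68 on the log2 scale and lost its call (adjusted p = 0.105 by edgeR), and 4 retinoid genes were lower. With the mean transcript length 7 of 9 genes kept their rank in benign tissue, where Rdh10 and Aldh1a3 changed places, and 9 of 9 in tumors. Without TMM scaling the median of all genes moved by 0.09 on the log2 scale. Depth limited Crabp1, Aldh1a2, Cyp26a1 and Cyp26c1, and intervals on counts cover counting error only.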
